A study of Mus musculus with 11 samples.

Results

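Whole pancreas of mice that had met both a protein-poor diet before birth and a β-cell toxin after birth was compared with pancreas of mice that had met neither. The comparison takes the 3 arrays labelled low protein diet with streptozotocin (STZ) injection and the 3 arrays labelled control diet with sham injection, 6 of the 11 arrays in the series. All arrays came from female Balb/C mice 30 days old, and each was hybridised with biotin-labelled RNA of the whole gland. Dams ate a diet with 20% protein or an isocaloric diet with 8% protein during gestation. Pups received STZ at 35 mg per kg, or a sham injection, on each of days 1 to 5. The 4 groups are called control sham (3 arrays), control STZ (2 arrays, replicates 1 and 3), low protein sham (3 arrays) and low protein STZ (3 arrays). The last is the doubly treated group. The 2 groups that met a single factor stand beside it where they show how far one factor alone went.

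Streptozotocin is a glucose analogue that enters β cells through the glucose transporter encoded by Slc2a2, alkylates their DNA and kills them. The neonatal rodent β-cell mass can partly regrow after such a loss. Protein restriction during gestation is known to reduce islet mass in rodent offspring. Endocrine islets make up a small part of the gland, and most pancreatic RNA comes from acinar cells, which secrete digestive enzymes. The labels call the arrays biological replicates without naming dam or litter, so p-values measure only the spread between these samples. The dams, not the pups, ate the diets, so diet and litter cannot be told apart. No contrast of the doubly treated with the untreated group separates the factors.

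The largest differences lay in transcripts of the β cell, and the regions before their start sites are shown as the reference for the genes on which the comparison turns. The RefSeq promoter table held Iapp, G6pc2 and Gcg and did not hold Ins2. Each sequence is the 250 bases before an annotated start (GRCm38.p6), 5′ to 3′ on the gene's strand. Capitals mark CATCTG or its reverse complement CAGATG, a form of the E-box bound by basic helix-loop-helix factors such as Neurod1. The sequence for Iapp lies at chr6:142298175-142298424 (plus strand), the second of the 2 starts of G6pc2 at chr2:69219699-69219948 (plus strand), and that for Gcg at chr2:62483654-62483903 (minus strand).

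Iapp: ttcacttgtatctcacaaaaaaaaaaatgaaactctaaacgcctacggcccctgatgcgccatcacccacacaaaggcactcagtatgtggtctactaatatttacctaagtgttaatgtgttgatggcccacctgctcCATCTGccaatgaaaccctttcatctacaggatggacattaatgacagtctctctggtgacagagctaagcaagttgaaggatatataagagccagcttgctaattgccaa

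G6pc2: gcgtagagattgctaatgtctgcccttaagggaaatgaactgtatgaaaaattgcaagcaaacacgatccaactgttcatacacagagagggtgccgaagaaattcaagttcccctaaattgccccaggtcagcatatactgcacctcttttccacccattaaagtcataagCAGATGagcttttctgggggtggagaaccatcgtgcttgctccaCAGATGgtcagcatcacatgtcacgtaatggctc

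Gcg: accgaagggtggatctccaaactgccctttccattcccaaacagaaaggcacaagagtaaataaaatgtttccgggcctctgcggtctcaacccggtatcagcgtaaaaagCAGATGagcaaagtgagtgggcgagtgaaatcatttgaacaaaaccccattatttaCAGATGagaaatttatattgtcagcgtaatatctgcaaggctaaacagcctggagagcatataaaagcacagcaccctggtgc

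The hexamer occurred 1 time before Iapp, 2 times before the second G6pc2 start and 2 times before Gcg, counting both strands. It was absent from the 250 bases before the first G6pc2 start. Of 32851 mouse promoter windows of the same length, 14.4% held it and 1.32% held it 2 or more times. The homeodomain core TAAT, counted on both strands, occurred 5 times before Iapp, 3 times before the second G6pc2 start and 2 times before Gcg. It occurred 1 time before the first G6pc2 start. Of all windows 54.9% held it and 30.8% held it 2 or more times. Gcg is an α-cell gene, so the matches did not separate the 2 endocrine cell types.

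Values are log2 signals, and differences are low protein STZ minus control sham. One symbol was measured by the brightest of its probe sets, the groups of short probes that read 1 transcript, and 15897 genes were tested with limma. Array medians lay between 7.916 and 7.967, and correlations over the tested genes were 0.969 to 0.985 within the 2 groups and 0.956 to 0.984 between them. The first principal component held 38.4% of the variance, with control sham 1 at -22.96 and low protein STZ 1 at 28.56. Bacterial hybridisation control transcripts averaged 10.73 to 11.34 in control sham arrays and 10.36 to 10.83 in low protein STZ arrays. Their part in the results was not tested beyond a fit with them as a covariate. Acinar markers were near the top of the scale in all 6 arrays (Cpa1 at 15.02 to 15.81, Cela1 at 15.01 to 15.82). Ptf1a, the acinar lineage factor, was at 10.51 to 12.07.

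Across all genes, 0 of 15897 (0%) passed an adjusted p of 0.05 in limma, and the smallest adjusted p was 0.0503. At an unadjusted p under 0.05, 1920 genes were lower after the double treatment (12.1% of those tested) and 578 were higher (3.64%). All 3 doubly treated arrays lay below all 3 control sham arrays for 1764 genes (11.1%) and above them for 837 (5.27%). The count that passed rested on single arrays. It became 705 (635 lower) without low protein STZ 3 and 457 (432 lower) without control sham 2. It became 21 without low protein STZ 2, 9 without control sham 3 and 5 without low protein sham 1. Leaving out any of the other 6 arrays gave 0.

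The median difference grew more negative with the signal of the gene, up to a signal of 14. Genes higher without overlap made up 11.1% at 13 to 14 and 17.7% at 14 to 16, and lower ones 51.1% and 69.4%. Among 3733 genes with a mean signal of 6 to 8 the median difference was 0.01, among 1546 genes at 10 to 11 it was -0.12, and among 90 genes at 13 to 14 it was -0.59. In that bright class the median deviation from the control sham mean was -1.08 in low protein STZ 1, -0.43 in low protein STZ 2 and -0.29 in low protein STZ 3. It was -0.41, -0.52 and -0.44 in the 3 low protein sham arrays, and -0.04 and -0.11 in the 2 control STZ arrays. The control sham arrays themselves were at 0.03, -0.08 and 0.05. In this class every low protein array therefore lay below every control diet array, with or without STZ. At 12 to 13 this no longer held, with low protein STZ 3 at -0.09 and control sham 2 at -0.11. Further scaling between arrays moved the split. The share of lower genes among those at p under 0.05 was 76.9% on the deposited values, 55.2% after cyclic loess (8.08% of genes lower, 6.55% higher) and 46.5% after quantile normalization (6.99% lower, 8.03% higher). With the hybridisation controls as a covariate it was 63.0%, with 1048 genes lower and 616 higher at that level and a smallest limma adjusted p of 0.312. Over the settings tried the smallest adjusted p ran from 0.00805 to 0.312. The median over all genes was -0.04 on the deposited values, and both scalings moved it by under 0.1. Bright classes moved further. The median at 14 to 16 went from -0.55 to 0.35 after cyclic loess and -0.05 after quantile normalization. Gene groups are given on the deposited values, with the median after cyclic loess and then after quantile normalization beside it. Their counts at p under 0.05 are to be read against 12.1% of all genes lower and 3.64% higher on the deposited values. Counts after a scaling are to be read against that scaling's own shares, given above. Counts without overlap are to be read against 11.1% lower and 5.27% higher.

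**Figure D1:**
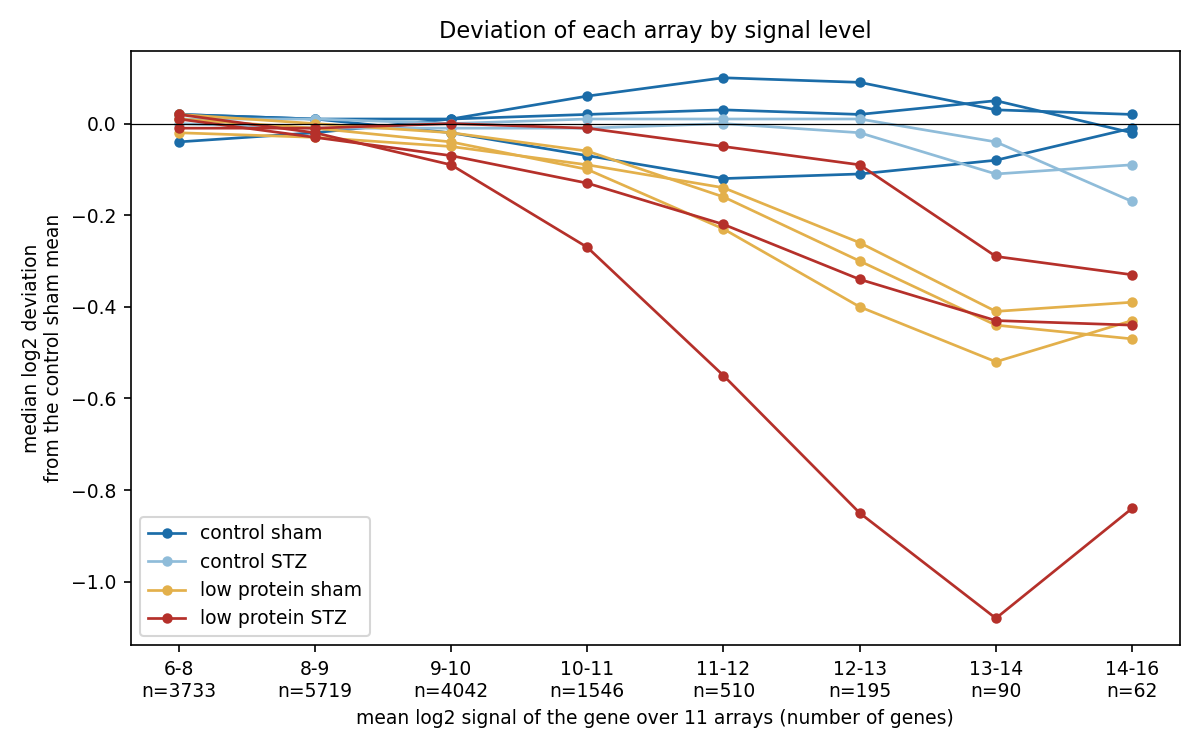
Median log2 deviation of each array from the mean of the control sham arrays (vertical axis, log2 units) by the genes' mean signal over 11 arrays (horizontal axis, classes with their number of genes), 1 line per array. For genes at 13 to 14 the low protein STZ arrays lie between -1.08 and -0.29, the low protein sham arrays between -0.52 and -0.41, and the control STZ arrays at -0.04 and -0.11.

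The insulin gene and its companions in the β-cell granule showed the largest differences of the comparison. Ins2, which encodes insulin, had a log2 signal of 14.81, 15.24 and 14.86 in the control sham arrays and 12.89, 13.57 and 12.93 in the low protein STZ arrays. Every doubly treated array was more than 1 log2 unit below every untreated one. The difference was -1.84 ± 0.28 SE (95% confidence interval -2.45 to -1.22, 3 and 3 arrays, 3.57-fold lower, limma adjusted p = 0.0556). The probe set may also read transcripts of Ins1, the other mouse insulin gene, which has no one-gene probe set and was not analysed here. In whole-gland RNA, fewer β cells and less insulin RNA per β cell cannot be told apart.

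Iapp encodes islet amyloid polypeptide, which β cells secrete with insulin. Its signal was 14.32, 14.85 and 14.27 in control sham and 12.15, 12.76 and 12.51 in low protein STZ arrays. The groups did not overlap, and the difference was -2.0 ± 0.34 SE (-2.77 to -1.24, 4.01-fold lower, adjusted p = 0.0556). All 4 Iapp probe sets were lower, by log2 differences of -2.0, -2.18, -2.13 and -1.69. G6pc2, the islet glucose-6-phosphatase that opposes glucokinase, read 8.66, 9.93 and 8.72 against 7.18, 7.11 and 7.02. Its difference was -2.0 ± 0.29 SE (-2.65 to -1.35, adjusted p = 0.0525). The doubly treated mean of 7.11 lay just above 6.866, the limit under which genes were taken as dim and not tested. Slc2a2, the transporter through which STZ enters, was under that limit on average and was not tested: it read 6.7, 7.32 and 6.76 in control sham and 6.08, 5.85 and 6.09 in low protein STZ arrays, again without overlap.

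None of these 3 genes passed in the fit reported, and several settings moved them past the threshold. Under the alternatives Ins2 stayed between -2.06 and -1.18, with adjusted p from 0.0166 to 0.328. Iapp stayed between -2.24 and -1.44 (adjusted p 0.017 to 0.328) and G6pc2 between -2.26 and -1.59 (adjusted p 0.0111 to 0.328). All 3 passed with array weights, and with control sham 2 or low protein STZ 3 left out. Ins2 and Iapp passed without low protein sham 1, and Ins2 also without low protein STZ 2. G6pc2 passed after quantile normalization. In a limma fit of the 2 groups alone, 3 arrays against 3, none of them passed. There the adjusted p was 0.222 for Ins2 and 0.22 for Iapp. After cyclic loess and quantile normalization the differences were -1.18 and -1.28 for Ins2, -1.45 and -1.44 for Iapp, and -2.0 and -1.98 for G6pc2.

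Hormones of the other islet cells were lower by less. Gcg, encoding glucagon of the α cell, read 13.9, 14.41 and 13.87 in control sham and 12.94, 12.85 and 13.2 in low protein STZ arrays (-1.06 ± 0.41 SE, 2.09-fold lower, adjusted p = 0.241), and its difference was -0.50 after cyclic loess and -0.44 after quantile normalization. Sst, the somatostatin of δ cells, read 10.16, 10.75 and 10.1 against 9.85, 9.63 and 9.65 (-0.63 ± 0.23, adjusted p = 0.218). Both hormones lay lower in every doubly treated array than in any control. Ppy, pancreatic polypeptide, read 8.78, 9.51 and 8.84 against 8.74, 8.52 and 8.59 (-0.43 ± 0.22, adjusted p = 0.398). Pyy, peptide YY of endocrine cells, differed by -0.49 and Ghrl, ghrelin, by 0.02. Of the 7 hormone genes tested, 6 were lower and did not overlap between the groups (11.1% of all genes), narrowly so for Ppy. At p under 0.05, 4 were lower (12.1% of all genes), and 0 passed over all genes. Their median was -0.63 against -0.04 over all genes, and -0.50 and -0.44 after cyclic loess and quantile normalization.

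**Figure D2:**
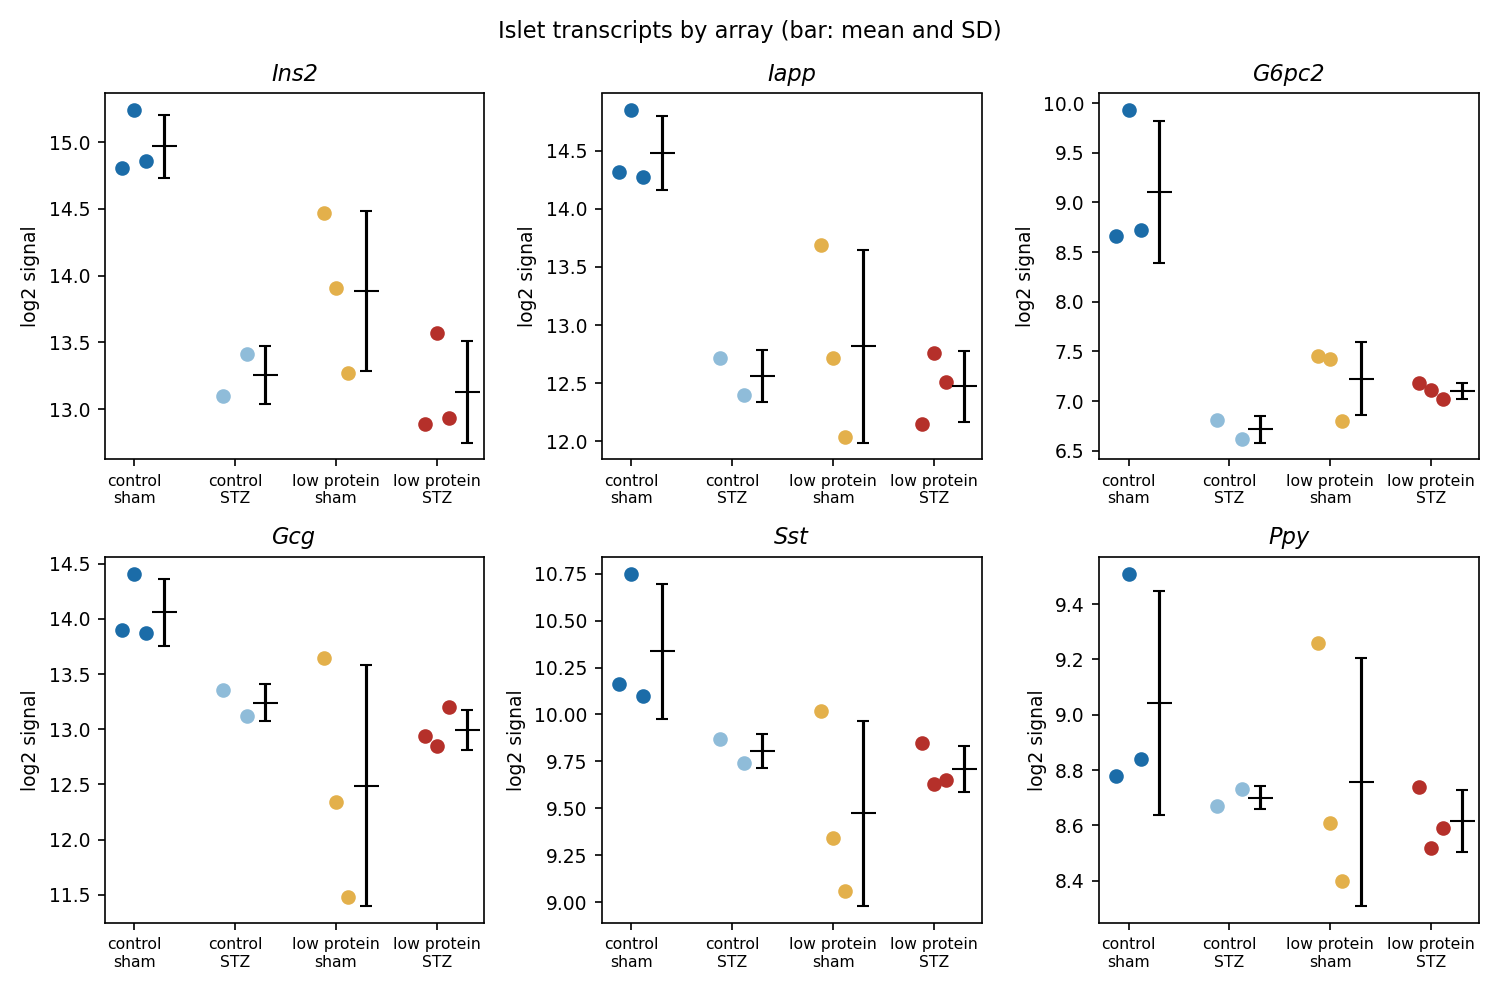
Log2 signal of 6 islet transcripts (vertical axes) in each array of the 4 groups (points), with the mean and SD of the group as a bar beside them. For all 6 transcripts the 3 low protein STZ arrays sit below all control sham arrays, narrowly so for Ppy. The low protein sham arrays spread from 13.27 to 14.47 for Ins2 and from 12.04 to 13.69 for Iapp.

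Set beside the groups with 1 factor, the doubly treated arrays lay at the level of those given STZ alone for Ins2. For Iapp they overlapped both groups with 1 factor. Ins2 read 13.1 and 13.41 in the control STZ arrays and 14.47, 13.91 and 13.27 in the low protein sham arrays. The low protein STZ arrays therefore spanned the control STZ pair and overlapped the lowest of the low protein sham arrays. Against control STZ the Ins2 difference was -0.12 ± 0.31 SE, an interval of -0.81 to 0.57. Against low protein sham it was -0.75 ± 0.28 (-1.36 to -0.14, limma adjusted p = 1). Iapp read 12.72 and 12.4 in the control STZ arrays and 13.69, 12.72 and 12.04 in the low protein sham arrays. Against control sham, the diet alone differed by -1.09 for Ins2 and -1.66 for Iapp, and STZ alone by -1.72 and -1.92. In the doubly treated group Iapp differed by -0.08 ± 0.38 from control STZ (-0.94 to 0.77) and by -0.34 ± 0.34 from low protein sham (-1.1 to 0.42). For Gcg these differences were -0.25 ± 0.46 (-1.27 to 0.78) and 0.50 ± 0.41 (-0.41 to 1.42), with low protein sham arrays from 11.48 to 13.65. None of these intervals is narrow enough to show that the groups were alike. They rest on the deposited values, on which low protein arrays lay lower for bright genes. Across all genes, 0 (0%) passed in limma against control STZ, where 1238 (7.79%) were lower and 271 (1.7%) higher at p under 0.05. Against low protein sham 0 (0%) passed, with 304 (1.91%) lower and 108 (0.679%) higher at that level. Without low protein STZ 3, 1 gene passed against control STZ.

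Genes of β-cell identity and glucose sensing, G6pc2 among them, differed little at the median. The share lower at p under 0.05 was above that of all genes. Of 25 listed, 18 were tested, 15 were lower and 3 higher, 5 were lower and 1 higher at p under 0.05 (12.1% and 3.64% of all genes), and 0 passed over all genes. The median was -0.14, and -0.13 and -0.11 after the 2 scalings. Cltrn, collectrin, a membrane protein of β cells and kidney, read 8.26, 9.19 and 8.76 in control sham and 7.68, 7.74 and 7.63 in low protein STZ arrays (-1.06 ± 0.25, adjusted p = 0.0734). Sytl4, granuphilin, which docks insulin granules, differed by -0.41 ± 0.11 (adjusted p = 0.0996). Pdx1, the homeodomain factor that drives insulin transcription, differed by -0.28 ± 0.09 (8.83 to 9.01 in control sham, 8.61 to 8.77 in low protein STZ, adjusted p = 0.155). The KATP channel subunits Abcc8 and Kcnj11 differed by -0.01 and -0.06. Nkx6-1, another β-cell factor, differed by -0.06.

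Granule proteins shared by endocrine cells gave 14 of 20 tested members lower and 6 higher, 7 lower and 0 higher at p under 0.05, and 0 past the threshold over all genes. Of the members 8 were lower and 2 higher without overlap (11.1% and 5.27% of all genes). Their median was -0.12, and -0.01 and 0.02 after the scalings, each with 7 members lower and 2 higher at p under 0.05. By sign, 10 were higher after cyclic loess and 11 after quantile normalization. Cpe, the carboxypeptidase that trims prohormones, read 10.89, 10.53 and 10.95 in control sham and 9.62, 9.61 and 10.03 in low protein STZ arrays (-1.04 ± 0.25, adjusted p = 0.0746). Chga, chromogranin A, read 8.96, 9.31 and 8.79 against 8.36, 8.24 and 8.17 (-0.76 ± 0.21, adjusted p = 0.107). Both were without overlap. Scg3, secretogranin III, differed by -0.48 ± 0.13 and the vesicle SNARE Vamp2 by -0.40 ± 0.12. The prohormone convertase Pcsk1 differed by 0.01. Among 8 other islet identity genes 2 were lower at p under 0.05 (median -0.12, and -0.09 and -0.08 after the scalings). Peg3, an imprinted zinc finger gene, read 9.56, 9.83 and 9.54 against 9.04, 9.16 and 9.23 (-0.50 ± 0.09, adjusted p = 0.0556), and the cationic amino acid transporter Slc7a2 differed by -0.39 ± 0.16. The α-cell factor Irx2 differed by 0.17 and the δ-cell factor Hhex by -0.08.

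Digestive enzymes were lower on the deposited values and higher after cyclic loess, so no direction is given for them. All 22 tested of 31 listed were lower at p under 0.05 on the deposited values without overlap (median -0.55, range -0.75 to -0.47), and 0 passed over all genes. After cyclic loess 21 were higher, 10 at p under 0.05 (median 0.35). After quantile normalization 21 were lower, 4 at p under 0.05 (median -0.05). Of the 22, 21 had a mean signal above 14, among the 62 genes in that class, whose median was also -0.55. In that class 69.4% of genes were lower without overlap. Klk1, a tissue kallikrein, read 15.49, 15.35 and 15.41 in control sham and 14.48, 14.93 and 15.01 in low protein STZ arrays (-0.61 ± 0.12 on the deposited values, 0.24 after cyclic loess). Ctrc, chymotrypsin C, Cpb1, carboxypeptidase B, and Zg16, a zymogen granule lectin, differed by -0.55, -0.55 and -0.58, and by 0.34, 0.34 and 0.31 after cyclic loess. Averaged over the list, low protein STZ 1 stood lowest at 14.61, against 15.02 and 15.14 in the other doubly treated arrays and 15.42 to 15.51 in control sham.

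Transcription factors of the acinar lineage had a median of -0.15 over 8 genes (-0.07 and -0.02 after the scalings), with 2 lower at p under 0.05 and 1 after either scaling. Xbp1, which builds the secretory endoplasmic reticulum, read 13.84, 13.37 and 13.83 against 12.6, 13.04 and 13.26 (-0.71 ± 0.17, adjusted p = 0.0719), with -0.14 and -0.11 after the scalings. Ptf1a read 12.07, 12 and 11.77 against 10.51, 11.02 and 11.73 (-0.86 ± 0.29, adjusted p = 0.185), with -0.55 and -0.56 after the scalings. The groups stood apart for both, narrowly so for Ptf1a, where low protein STZ 3 nearly reached control sham 3. Rbpjl, its partner in the acinar complex, differed by -0.15 ± 0.09. Reg family genes, secreted lectins made by acinar and injured islet tissue, had 5 of 7 members lower, 3 at p under 0.05 and a median of -0.42. That median was -0.11 after cyclic loess and -0.13 after quantile normalization, with 0 members at p under 0.05. Reg1 differed by -0.64 ± 0.15 and by 0.22 after cyclic loess. Reg3d differed by -0.61 ± 0.18 (-0.12 and -0.15 after the scalings), and Reg2 by -0.42 ± 0.17. Of 11 duct genes 7 were lower and 4 higher, 1 in each direction at p under 0.05. Their median was -0.13 on the deposited values and 0.10 and 0.12 after the scalings, where 7 were higher, so no direction is given. The duct keratin Krt19 differed by -0.14 and the duct factor Sox9 by 0.22.

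Chaperones and sensors of the unfolded protein response had a median of -0.13, with 3 of 25 lower at p under 0.05, close to the background of 12.1%. The median was 0.16 and 0.13 after the 2 scalings, so no direction is given. After each, 3 members were higher and 0 lower at p under 0.05, against 6.55% and 8.03% of all genes higher. Hspa5, the chaperone BiP, read 13.6, 13.98 and 13.5 in control sham and 12.61, 13.61 and 14.07 in low protein STZ arrays, the doubly treated arrays spanning both sides of the controls. Dnajb9, a BiP co-chaperone, differed by -0.72 ± 0.26 (adjusted p = 0.206) and Derl1, of the degradation channel, by -0.44 ± 0.19. Ddit3, the stress factor CHOP, differed by -0.04. Targets of the amino acid response factor ATF4 gave 4 of 16 lower at p under 0.05 (median -0.23, and 0.07 and 0.08 after the scalings). Nupr1, a stress-induced chromatin protein of the exocrine pancreas, read 14.96, 14.12 and 14.91 against 13.82, 13.54 and 13.8 (-0.94 ± 0.19, adjusted p = 0.0568). The groups did not overlap on the deposited values, and the difference was -0.22 and -0.40 after the scalings. Asns, asparagine synthetase, differed by -0.56 ± 0.23, and by -0.01 and -0.02 after the scalings. Differences on the deposited values were -0.54 ± 0.20 for the hormone gene Fgf21 (-0.50 and -0.47 after the scalings) and -0.28 ± 0.12 for Atf4 itself (0.01 after quantile normalization).

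Respiratory chain transcripts were lower under all 3 scalings. All 35 tested members were lower, 25 at p under 0.05 against a background of 12.1%, 22 without overlap and 0 past the threshold over all genes (median -0.56, range -1.06 to -0.15). After cyclic loess 31 were lower, 18 at p under 0.05 and 0 higher at that level (median -0.28). After quantile normalization 31 were lower, 19 at p under 0.05 (median -0.29). Genes with a mean signal of 11 to 12, the class of the list's own mean of 11.25, had a median of -0.27 on the deposited values. That median was 0.03 after either scaling, and 26.1% of the class was lower without overlap on the deposited values. Ndufb9, a complex I subunit, read 12.5, 12.6 and 13.01 in control sham and 11.24, 12.01 and 11.68 in low protein STZ arrays (-1.06 ± 0.19, adjusted p = 0.0556). Ndufa1 of the same complex read 13.49, 13.23 and 13.41 against 11.92, 12.71 and 12.62 (-0.96 ± 0.18, adjusted p = 0.0556). After the scalings the differences were -0.65 and -0.66 for Ndufb9 and -0.44 and -0.46 for Ndufa1. In each, low protein STZ 1 was the lowest array and all 3 lay below the controls. Cox6c, of cytochrome oxidase, differed by -0.76 ± 0.14, and Ndufb3 by -0.60 ± 0.10. On the deposited values the list's median was -0.05 for STZ alone and -0.35 for the diet alone, each against control sham. For low protein STZ it was -0.55 against control STZ and -0.19 against low protein sham. Each of these comparisons shares an array group with the one described. All genes at 11 to 12 had median deviations of -0.14, -0.23 and -0.16 in low protein sham arrays, and 0.01 and -0.0 in control STZ arrays.

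Ribosomal protein transcripts were lower on the deposited values in all 28 tested of 43 listed, 25 at p under 0.05 and 20 without overlap, with 0 past the threshold over all genes (median -0.72). Fewer were at that level after scaling. Of the members 4 were lower and 1 higher at p under 0.05 after cyclic loess (median -0.12), and 8 lower and 1 higher after quantile normalization (median -0.14). Of the 28, 22 had a mean signal above 12. On the deposited values 37.9% of all genes at 12 to 13 and 51.1% at 13 to 14 were lower without overlap. Rpl22, of the large subunit, read 13.22, 13.2 and 13.54 against 11.89, 12.56 and 12.51 (-1.0 ± 0.17, adjusted p = 0.0556). Rps24, Rps14 and Rps3, of the small subunit, differed by -0.93, -0.89 and -0.89. The 4 genes lay between -0.51 and -0.18 after the scalings. Ribosomal protein genes have many processed pseudogenes, whose sequences the probes may share.

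The antioxidant list kept its median under each scaling, while the 4 members of smallest p differed by less after scaling. Of 17 tested, 13 were lower, 7 at p under 0.05 (12.1% of all genes), and 1 was higher at that level (3.64%), with 0 past the threshold (median -0.30, and -0.31 and -0.29 after the scalings). Prdx4, the peroxiredoxin of the endoplasmic reticulum, read 14.26, 14.07 and 14.41 in control sham and 12.72, 13.38 and 13.6 in low protein STZ arrays (-1.02 ± 0.20, adjusted p = 0.0556). Gpx4, which detoxifies lipid peroxides, read 11.38, 11.32 and 11.4 against 10.39, 10.83 and 10.54 (-0.78 ± 0.14, adjusted p = 0.0556). The control arrays were close together for Gpx4, and all doubly treated arrays lay lower. Gpx1, a cytosolic glutathione peroxidase, differed by -0.67 ± 0.17 and Sod1, cytosolic superoxide dismutase, by -0.53 ± 0.13. After cyclic loess and quantile normalization Prdx4 differed by -0.38 and -0.40, Gpx4 by -0.55 and -0.53, Gpx1 by -0.45 and -0.43, and Sod1 by -0.33 and -0.31. The thioredoxin reductase Txnrd1 differed by 0.31, in the other direction. Genes that repair alkylated DNA, the lesion STZ makes, had a median of -0.06 over 15 genes (-0.04 and -0.02 after the scalings), with 2 lower and 1 higher at p under 0.05. The 13 BCL2 family genes tested, regulators of cell death, had a median of -0.05 (-0.01 and 0.02 after the scalings) with 2 lower and 1 higher at p under 0.05.

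Connective tissue and vessel genes were lower by small amounts under each scaling. Stroma and matrix genes gave 25 of 29 lower, 10 at p under 0.05 against 12.1% of all genes, and 0 past the threshold over all genes (median -0.22). After the scalings the medians were -0.15 and -0.13, each with 4 of 29 lower at p under 0.05, against 8.08% and 6.99% of all genes. Col3a1, the collagen III chain, read 12.56, 12.8 and 13.49 in control sham and 11.71, 11.85 and 12.65 in low protein STZ arrays (-0.88 ± 0.28, adjusted p = 0.156). The highest doubly treated array overlapped the lowest control, and the difference was -0.43 and -0.44 after the scalings. Vim, an intermediate filament of mesenchyme, differed by -0.80 ± 0.25, Sparc, a matrix protein, by -0.69 ± 0.22, and Bgn, biglycan, by -0.45 ± 0.13. Control sham 3 was the highest array of the 6 for each of these 4 genes. Endothelial genes gave 16 of 19 lower, 6 at p under 0.05 (median -0.17, and -0.13 and -0.11 after the scalings). Cd34 and Emcn, sialomucins of vessel lining, differed by -0.63 ± 0.20 and -0.41 ± 0.14, and Plvap, of fenestral diaphragms, by -0.49 ± 0.17. The pan-endothelial genes Pecam1 and Cdh5 differed by -0.04 and 0.07.

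Growth factor genes of the insulin and IGF system differed in both directions, with 0 past the threshold: 4 of 24 were lower and 2 higher at p under 0.05, against 12.1% and 3.64% of all genes (median -0.08). After the scalings the medians were 0.04 and 0.07. At p under 0.05, 2 were lower and 4 higher after cyclic loess, against 8.08% and 6.55% of all genes. After quantile normalization 2 were lower and 5 higher, against 6.99% and 8.03%. Igf1, the insulin-like growth factor, read 10.94, 10.54 and 10.99 against 10.06, 10.28 and 10.33 (-0.60 ± 0.13, adjusted p = 0.0586). Its binding proteins differed in sign. Igfbp4 was at -0.64 ± 0.17 and Igfbp7 at -0.51 ± 0.15. Igfbp5 read 11.91, 12.17 and 12.6 in control sham and 12.76, 12.79 and 12.74 in low protein STZ arrays (0.54 ± 0.15, adjusted p = 0.109, and 1.01 after either scaling). The doubly treated values were close together and above every control. Irs2, an insulin receptor substrate, differed by 0.20.

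Cell division genes gave 6 of 35 lower and 1 higher at p under 0.05, not far from the 12.1% and 3.64% of all genes (median -0.15, and -0.14 and -0.11 after the scalings). Pcna, the replication clamp, read 10.82, 9.72 and 10.21 against 9.43, 9.62 and 9.63 (-0.69 ± 0.24, adjusted p = 0.195). Mki67, a marker of cycling cells, read 9.31, 7.88 and 7.98 against 7.88, 7.57 and 7.63. Control sham 1 was the highest array for both, and for Mki67 control sham 2 stood level with the highest doubly treated array. Cenpq, a centromere protein, differed by -0.30 ± 0.08 and Rrm1, of ribonucleotide reductase, by -0.24 ± 0.07. Of 15 G1 regulators 3 were lower at p under 0.05 (median -0.15, and -0.02 and -0.00 after the scalings).

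Leukocyte genes differed by small amounts. Lymphocyte genes gave 10 of 16 higher, 3 at p under 0.05 and 0 lower at that level, against 3.64% of all genes higher, with 0 past the threshold (median 0.11, and 0.13 and 0.15 after the scalings). Btla, an inhibitory receptor of lymphocytes, read 7.79, 7.91 and 7.89 in control sham and 8.23, 8.1 and 8.11 in low protein STZ arrays (0.28 ± 0.07, adjusted p = 0.0765). Cd3e, of the T cell receptor complex, read 8.31, 8.44 and 8.63 against 8.94, 8.75 and 8.65 (0.32 ± 0.10, adjusted p = 0.156). The groups stood apart for both by small gaps. The B cell factor Pax5 differed by 0.20 ± 0.08, and the B cell receptor gene Cd79b by 0.01. Of 20 macrophage genes 10 were lower and 10 higher, 2 of them higher at p under 0.05 (median -0.01, and -0.01 and 0.01 after the scalings). The chemokine Ccl3 differed by 0.30 ± 0.12 and the adaptor Tyrobp by 0.15 ± 0.07. The complement gene C1qb differed by -0.35 ± 0.17 and the lysosomal protease Lgmn by -0.24 ± 0.11. Interferon-induced genes had a median of 0.05 (0.09 and 0.12 after the scalings) with 1 of 16 higher at p under 0.05. MHC class I genes had 2 of 12 lower at that level (median -0.09, and -0.06 and -0.04 after the scalings), and class II genes 0 of 8 (median -0.12, and -0.07 and -0.05).

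Markers of tissues next to the pancreas were checked in the same arrays. For adipocytes 6 of 10 listed genes were tested and 2 were lower at p under 0.05. The fatty acid carrier Fabp4, which endothelium also makes, read 10.63, 10.83 and 11.11 against 10.16, 9.92 and 9.97, while Adipoq, defining fat, stayed under the dim limit at 5.76 to 6.03. The list's mean level was 9.72 to 9.87 in control sham and 9.49 to 9.6 in low protein STZ arrays. Intestinal genes gave 0 lower and 1 of 8 higher (level 8.21 to 8.43 against 8.37 to 8.41). Muscle genes gave 0 of 5 in either direction (8.15 to 8.31 against 8.23 to 8.25), with Acta1 under the dim limit. Liver genes gave 0 of 6 (8.99 to 9.13 against 8.86 to 9.05), and Schwann cell genes 1 of 4 lower. Of 3 erythroid genes Alas2, of haem synthesis, read 8.83, 9.14 and 8.72 against 8.4, 8.31 and 8.26. After the scalings the medians of these lists stayed between -0.08 and 0.10. The part of these tissues in the other results was not tested.

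**Figure D3:**
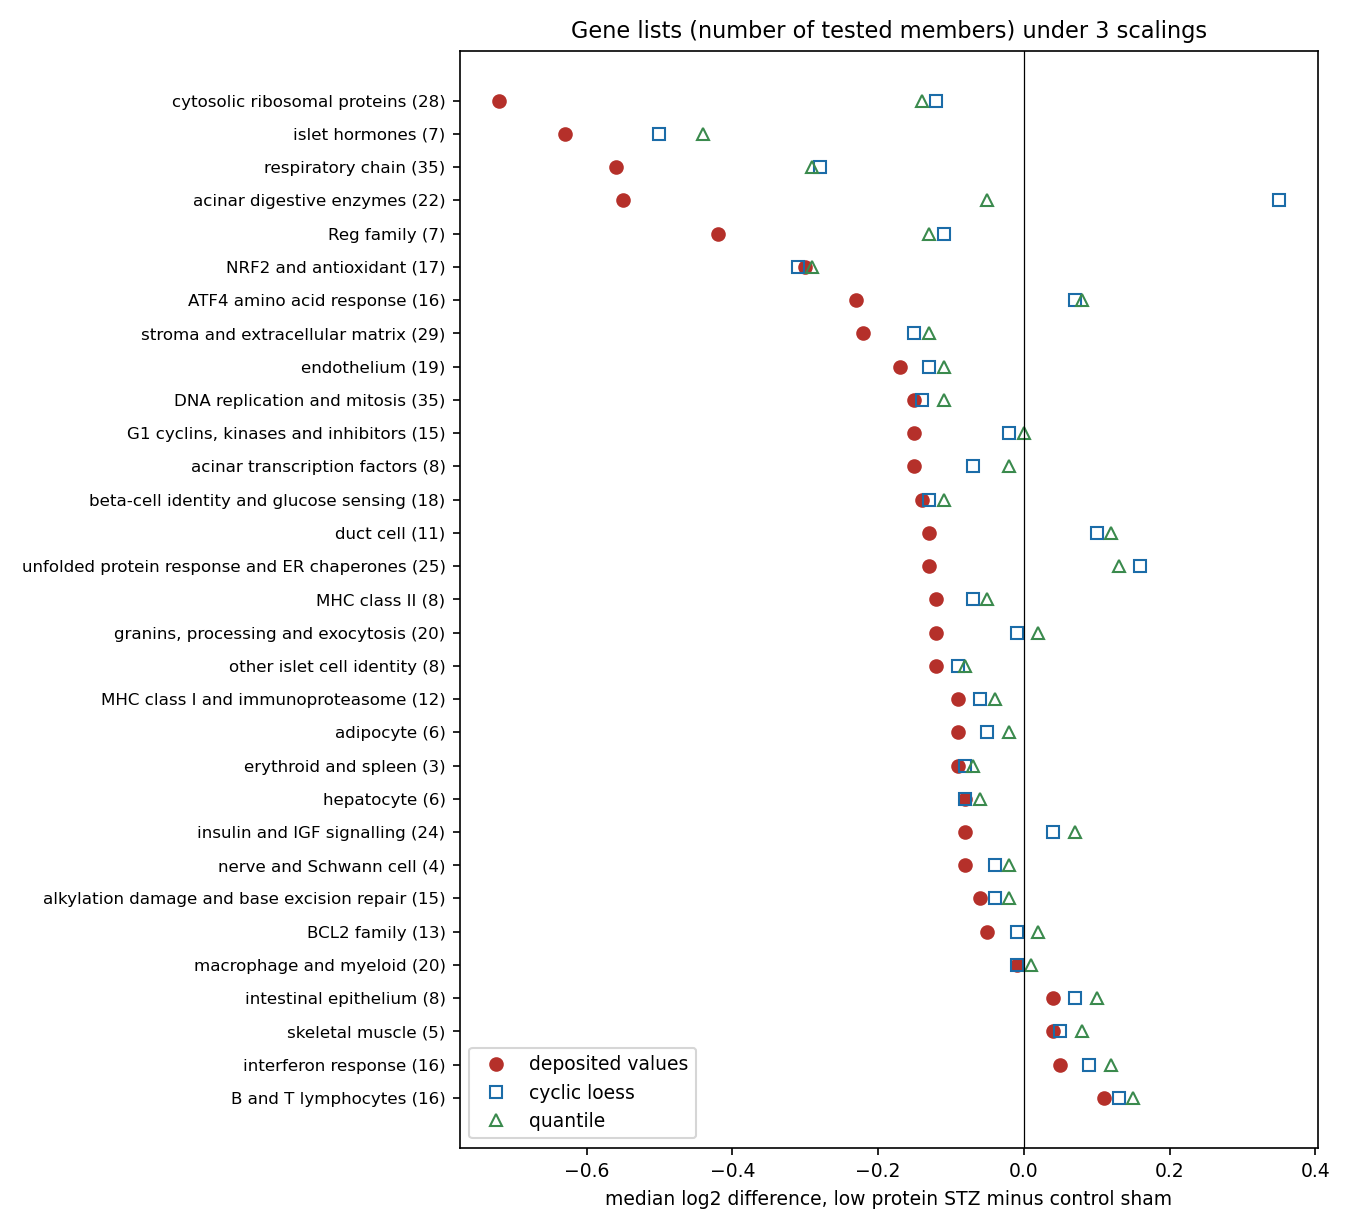
Median log2 difference, low protein STZ minus control sham (horizontal axis), of the tested members of 31 gene lists (vertical axis, number of tested members in brackets) on the deposited values (filled circles) and after cyclic loess (squares) or quantile normalization (triangles). The digestive enzymes move from -0.55 to 0.35 with cyclic loess, whereas the antioxidant list stays between -0.31 and -0.29.

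Outside the lists, the 8 lower genes with the smallest p had adjusted p from 0.0503 to 0.0525. Ngdn, neuroguidin, read 9.86, 9.98 and 9.95 in control sham and 9.39, 9.3 and 9.23 in low protein STZ arrays (-0.62 ± 0.07, adjusted p = 0.0503), and its other probe set differed by -0.15. Mff, which recruits the fission machinery to mitochondria, read 11.2, 11.24 and 11.23 against 10.25, 10.36 and 10.5 (-0.85 ± 0.11, adjusted p = 0.0503), and its other probe sets differed by -0.38 and -0.61. For both genes the controls were tightly grouped and far from the doubly treated arrays. The RNA-binding proteins Hnrnpdl and Rbm39, which act in splicing, differed by -1.05 ± 0.15 and -0.72 ± 0.10. The others were Hint3, a histidine triad hydrolase (-0.73 ± 0.10), Tmem107, a ciliary transition zone protein (-0.92 ± 0.13), the Mediator subunit Med28 (-0.53 ± 0.08) and 1810008I18Rik (-0.50 ± 0.07). The other probe sets of Tmem107 differed by -0.20 and 0.10, and that of Med28 by -0.05.

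After the islet genes, the most negative differences without overlap belonged to Xist, Ppic, Luc7l2, Ifrd1 and ND5, none of which passed. Xist, the RNA that silences an X chromosome in female cells, read 11.3, 12.2 and 11.86 against 10.7, 10.53 and 9.92 (-1.40 ± 0.33, adjusted p = 0.0718). Its other probe sets differed by -0.68 and -0.21. Ppic, cyclophilin C, read 11.14, 10.68 and 11.5 against 9.64, 9.61 and 10.37 (-1.23 ± 0.22, adjusted p = 0.0556). Ifrd1 differed by -1.19 ± 0.28 and the splicing factor Luc7l2 by -1.21 ± 0.46. ND5, a complex I subunit encoded by mitochondrial DNA, read 14.72, 14.3 and 14.41 against 13.34, 12.84 and 13.75 (-1.17 ± 0.20, adjusted p = 0.0556), with -0.50 and -0.53 after the scalings. In this gene low protein STZ 2, not 1, was the lowest array.

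Genes with higher signal had few other probe sets that were higher at p under 0.05. Lat2, an adaptor of myeloid and B cells, read 7.56, 7.59 and 7.77 in control sham and 8.25, 8.12 and 8.33 in low protein STZ arrays (0.59 ± 0.08, adjusted p = 0.0503), and its other probe set differed by 0.03. Armc8, part of a ubiquitin ligase complex, read 12.33, 12.36 and 13.03 against 14.06, 13.68 and 13.47 (1.16 ± 0.20, adjusted p = 0.0556), and its other probe sets differed by -0.09 and 0.07. Nfkbia, the inhibitor of NF-κB, differed by 0.53 ± 0.08 and the adaptor Stap2 by 0.84 ± 0.13. Oga, which removes O-GlcNAc from proteins, differed by 0.71 ± 0.12, Commd5 by 0.67 ± 0.11, glutathione synthetase Gss by 0.90 ± 0.16 and Fam71d by 0.57 ± 0.10, all with an adjusted p of 0.0556. The largest differences were those of Vat1 (1.20 ± 0.23), Armc8, the homeobox gene Hoxa5 (1.15 ± 0.24), the dynactin subunit Actr1a (1.0 ± 0.24), Gss, the prostaglandin reductase Ptgr2 (0.86 ± 0.23), Stap2 and the carbonic anhydrase Car7 (0.79 ± 0.22). Low protein sham arrays were close to the doubly treated ones for several of them, as in Armc8 (13.81, 13.59 and 13.85) and Vat1 (12.29, 11.84 and 11.9, against 12.1, 11.69 and 11.88).

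Of these 13 higher genes, 12 had another probe set above the dim limit, and 1 of the 12 (8.33%), Hoxa5, had one that was also higher at p under 0.05, at 0.20. The 27 other probe sets had a median difference of -0.02, and 11 of them were higher by sign. Those of Ptgr2 were all lower, at -0.31 and -0.23 (each at p under 0.05 in limma), -0.12 and -0.04. Of the 16 lower genes named above with the islet genes, 9 had another probe set and 7 of them (77.8%) had one lower at p under 0.05, with a median of -0.56 over 26 probe sets. Among all genes at p under 0.05 the shares were 24 of 253 (9.49%) for higher and 355 of 972 (36.5%) for lower genes. The base rates were also unequal. When every probe set was tested, 859 of 27249 were higher and 2956 lower at p under 0.05. The shares of higher and lower genes, named or all, are to be read against these counts. How much of the gap between the shares follows from the base rates was not tested. Probe sets whose names end in _x_at, the array maker's mark for probes shared with unrelated transcripts, gave the value for 5 of the 13 higher genes (38.5%) and 3 of the 16 lower genes (18.8%). They gave it for 7.27% of all genes higher and 8.07% of all genes lower at p under 0.05, and for 3.87% of all genes tested. The named lower genes read in this way were Ins2, Ngdn and Mff, and the higher ones Actr1a, Gss, Hoxa5, Lat2 and Vat1. Ins2 had no other probe set above the dim limit. The part of cross-hybridisation in these values was not tested.

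**Figure D4:**
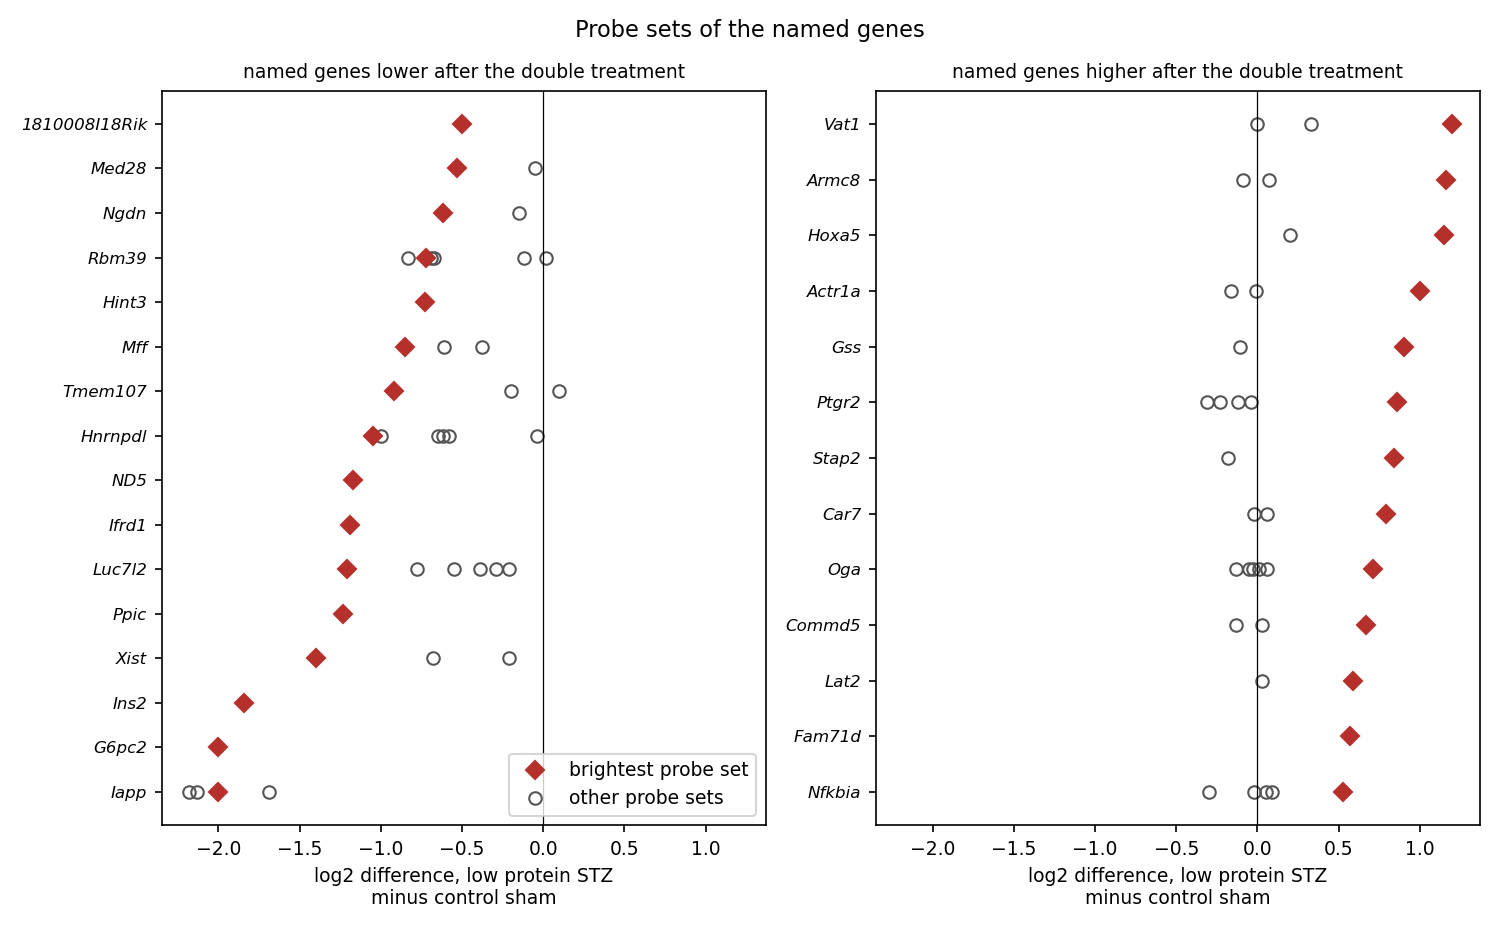
Log2 difference, low protein STZ minus control sham (horizontal axis), of the brightest probe set (diamonds) and every other probe set above the dim limit (circles) for the 16 named lower and 13 named higher genes (vertical axis). The other probe sets of the higher genes centre on -0.02, and those of the lower genes on -0.56.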

How the data were processed

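The deposited values are log2 signals, 1 for each probe set of an Affymetrix array. The submitters' processing notes list RMA and Partek 6.5, with no role given. The genome build is not given in the sources used here. Of 45101 probe sets, 34958 carry 1 gene in the GEO platform annotation, 932 several and 9211 none, and only the first kind was used. Each of 18194 genes was read by its brightest probe set. The 2297 genes with a mean at or under 6.866, the 0.25 quantile of probe set means, were not tested, which left 15897. A model of 4 group means over 11 arrays was fitted in limma 3.58.1 under R 4.3.3 with moderated two-sided tests (Benjamini-Hochberg adjustment over all genes tested, threshold 0.05). The fit was tested on simulated data. SE is the standard error of the fit, and the number of arrays limits the precision.

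The genes, lists and comparisons were chosen with earlier results of these data known. Named are the islet hormones, the 8 genes with the smallest p in each direction, the 8 largest non-overlapping differences in each direction, and for each list at most 4 members, those of smallest p. Other members given with values (such as Slc2a2, Cpa1, Hspa5, Sox9, Mki67, Abcc8 and Fabp4) were added as markers of their cell type or pathway, after their values were seen. Alternatives were a replicate block, the 2 groups alone, trend and robust moderation, array weights, cyclic loess, quantile normalization, other filters and probe set rules, a 1.5-fold rule, an RNA quality covariate and each array left out. A hybridisation control covariate, a fit without both ends of the first component and the other probe sets were added after seeing the data. Promoter sequences are from RefSeq (GRCm38.p6). Tables and figures were made with Python 3.11.15 and matplotlib 3.10.9.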

Additional observations from a re-analysis of the deposited data

Results flagged for a closer look

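G6pc2, the islet glucose-6-phosphatase, stood out because the low protein arrays lay below the control diet arrays in sham animals and above them after STZ. The 3 low protein sham arrays (6.8 to 7.45) lay below all control sham arrays (8.66 to 9.93), and the 3 low protein STZ arrays (7.02 to 7.18) lay above both control STZ arrays (6.62 and 6.81). Low protein minus control diet was -1.88 in sham animals (95% confidence interval -2.53 to -1.23) and 0.39 after STZ (-0.33 to 1.12), an interval that holds 0. The difference of these 2 values was 2.28 ± 0.44 SE on the log2 scale (limma adjusted p = 1 over all genes), and both control STZ arrays were under the dim limit of 6.866.

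Tyrobp, a signalling adaptor of myeloid cells, stood out because the STZ arrays lay below the sham arrays under the control diet and above them under the low protein diet. It was 8.78 and 8.81 in control STZ against 8.82 to 8.96 in control sham arrays. It was 8.99 to 9.15 in low protein STZ against 8.88 to 8.94 in low protein sham arrays. STZ minus sham was -0.12 under the control diet (-0.29 to 0.05) and 0.15 under the low protein diet (-0.00 to 0.31), and both intervals hold 0. The difference of these 2 values was 0.27 ± 0.10 SE (limma adjusted p = 1).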

How the results depend on the processing

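The count of genes past the threshold, 0 in the fit reported, was 1388 with array weights (191 higher, 1197 lower), 51 after quantile normalization (38 higher, 13 lower), 10 with genes above the median signal only and 1 with the mean of a gene's probe sets. The rule of unadjusted p under 0.05 with a 1.5-fold difference gave 433 (21 higher, 412 lower). That split was 87 to 134 after cyclic loess, 88 to 115 after quantile normalization, 17 to 197 without low protein STZ 1 and 33 to 838 without low protein STZ 3. The rule gave 9 and 226 for low protein STZ against low protein sham and control STZ. At the adjusted threshold, leaving out each array gave 0 to 705, and 0 to 1 against control STZ. The cause was not tested. With array weights low protein STZ 2 had a weight of 3.43, and low protein STZ 3 of 0.414. Of 98 named genes, 90 kept their direction under every one of the 23 settings in which they were tested. The reversals after cyclic loess were Klk1 (0.24), Ctrc (0.34), Zg16 (0.31), Cpb1 (0.34), Reg1 (0.22) and Edem1 (0.04). After quantile normalization they were Nr5a2 (0.02), Edem1 (0.00) and Atf4 (0.01). With single arrays left out Nr5a2 ranged from -0.43 to 0.04, the last without control sham 1. Without both ends of the first component Nr5a2 was at 0.23 and Edem1 at 0.07.

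With the replicate number as a block the count was 0, with 1905 genes lower and 547 higher at p under 0.05. The labels do not say whether equal numbers mark paired samples. Deviations of same-numbered arrays correlated at -0.32, 0.257 and 0.114, and 2 of 6 arrays correlated best with their own number. So few arrays cannot decide whether the numbers pair the samples. The block changed no other call.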
